A study of Homo sapiens with 12 samples.

Results

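The genes described here encode 10 amino acid transporters that belong to the ATF4 program: *SLC7A11*, *SLC7A5*, *SLC3A2*, *SLC6A9*, *SLC7A1*, *SLC7A3*, *SLC1A4*, *SLC1A5*, *SLC38A1* and *SLC38A2*. They were chosen by symbol, and 10 of 10 were found among the 23292 gene symbols of each deposited table. The RNA came from HEK293T cells, an established human embryonic kidney line that the growth notes also call HEK293. Cells were wild type and were treated for 6 h with DMSO as vehicle, or with AA263, AA263yne or AA263-5 at 10 µM, with 3 samples in each of the 4 groups and 12 samples in all. AA263 is a compound that activates ATF6, a sensor of the endoplasmic reticulum (ER) unfolded protein response, and AA263yne and AA263-5 are analogs of it.

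The value used here is the mean normalized value of each gene, which is the authors' mean over the samples of their fit. It was identical in the 3 tables, so samples treated with vehicle and with each compound enter the same mean. A single mean per gene gives the level of a transporter in this experiment as a whole. It holds no spread between replicates and no contrast between compounds, so no effect of AA263, AA263yne or AA263-5 on these genes is given and no order of levels was tested. The depth of single samples was not analysed here, and the mean normalized values of all genes sum to 36.6 M.

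ATF4 is the transcription factor of the integrated stress response. Its translation rises when the initiation factor eIF2α is phosphorylated, for example by the ER stress sensor PERK, and with partners of the C/EBP family it binds composite elements in genes for amino acid uptake and synthesis. Transporters in this program bring in neutral, cationic or sulfur amino acids. *SLC3A2* encodes the heavy chain CD98hc, which carries the light chains of *SLC7A5* and *SLC7A11* to the plasma membrane.

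TGATGCAA, a form of the core of the composite element, was present near the transcript start of 6 of the 8 transporters searched. These matches are shown because they bear on the name of the group. The window ran from 1000 bases before to 2000 bases after the start of the GENCODE 44 transcript that stands for the gene, on GRCh38, and both strands were searched. This window was chosen after the data were seen, and the 300 bases of the promoter planned for the search gave lower shares, stated further on. *SLC7A11* and *SLC7A3* are not in the promoter table used and were not searched. The window search was kept to genes of that table, a limit that the window itself did not need. Each line is written along the strand of the gene, 5′ to 3′, with the match in capitals. TTGCATCA is TGATGCAA on the other strand.
SLC1A4: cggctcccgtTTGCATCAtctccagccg
SLC6A9: ctcgggaggcTGATGCAActttcccttt
SLC38A1: ggggagattcTGATGCAAtcggcccgga
SLC7A1: gcgtggtgcaTGATGCAAcaccgagtga
SLC7A5: ccctgcatccTTGCATCActacgcccct
SLC38A2: acgatcgataTTGCATCAgttttctttc

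In *SLC7A5* the run lies on the minus strand at chr16:87868809-87868836, in intron 1, with the match 681 bases after the start. The matches of *SLC7A1* (chr13:29595140-29595167, minus strand, 531 bases after the start) and *SLC38A2* (chr12:46372043-46372070, minus strand, 713 bases after the start) were also in intron 1. Those of *SLC6A9* (chr1:44031370-44031397, minus strand) and *SLC38A1* (chr12:46268790-46268817, minus strand) fell in the 5′ untranslated part of exon 1, at 75 and 236 bases from the start. In *SLC1A4* the run on the plus strand at chr2:64989382-64989409 began its match 7 bases before the start of the transcript used, which begins inside the annotated gene. The transcripts used for *SLC38A1*, *SLC3A2* and, by a few bases, *SLC6A9* also begin inside their annotated genes. No match to TGATGCAA was found for *SLC1A5* or *SLC3A2*.

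**Figure D1:**
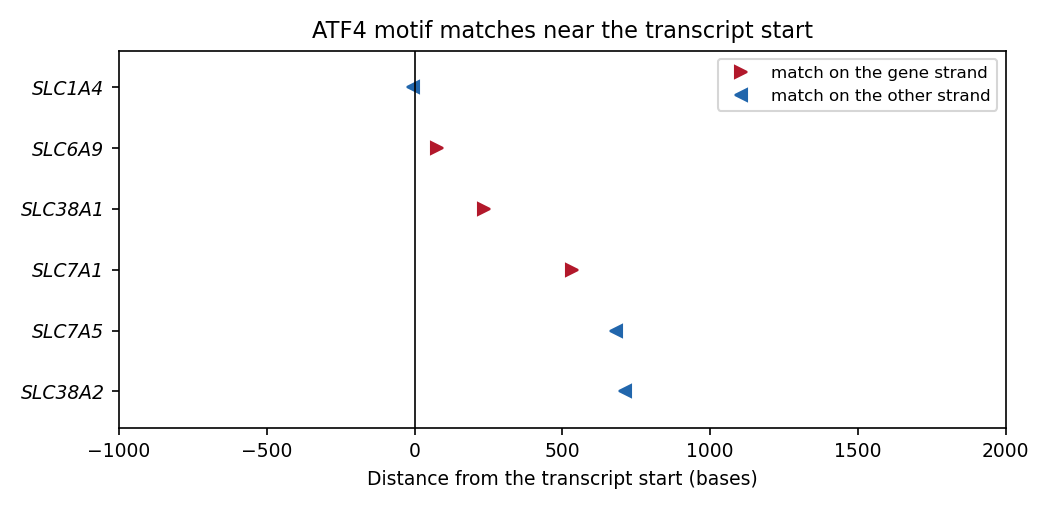
Position of each TGATGCAA match (x axis, bases from the transcript start, which is at 0) for the 6 transporters that hold one; the direction of the triangle and its colour give the strand. Starts are those of GENCODE, and all matches lie between 7 bases before and 713 bases after them. For *SLC1A4* and *SLC38A1* the RefSeq start differs, and these distances do not hold from it.

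Over all 15345 protein-coding genes searched in the same way, 6.28% held TGATGCAA, against 75% of the 8 transporters. TGATGNAA, where N is any base, was the form planned as the main one. In this window it was in 87.5% of the transporters and in 31.0% of all genes. The transporters are grouped as ATF4 targets, so these shares describe them and no test was made. Among 15 other genes of the ATF4 program, from a list chosen by role, 10 held TGATGCAA, including *DDIT3*, *TRIB3* and *CHAC1*. Among 22 other amino acid transporters TGATGCAA was present in 0. A match of 8 letters describes the sequence and does not show that ATF4 was bound there.

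The planned search of the nearer promoter gave fewer matches. In the RefSeq promoter sequences on GRCh38.p14, which run from 250 bases before to 50 bases after the start, the looser form TGATGNAA was found in 3 of 8 transporters on either strand, against 3.67% of 27305 promoters. The matches were in *SLC3A2*, *SLC7A1* and *SLC38A1*, and in none of them was the N a C. TGATGCAA itself was found in 0 of 8 and in 0.923% of all promoters.
SLC3A2: gcaggactccTTACATCAgctcc
SLC7A1: ggcgcactgcTGATGAAAcctggcgccg
SLC38A1: cagacccgaaTGATGAAAagggatcagc
The run of *SLC3A2* is at chr11:62881726-62881748 on the plus strand, that of *SLC7A1* at chr13:29595664-29595691 on the minus strand, and that of *SLC38A1* at chr12:46266503-46266530 on the minus strand. The start used by GENCODE lies 920 bases after that of RefSeq in *SLC1A4*, and before it in *SLC3A2* and *SLC38A1*, while the other 5 starts are the same. The match of *SLC1A4* printed above therefore lies outside its RefSeq promoter sequence, and for these 3 genes the searches differ in the start as well as in the window.

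All 10 transporters were detected, at mean normalized values from 184 to 14272. Levels were set side by side after division by the length of the transcript in kilobases, and on this scale the transporters spanned 57.4-fold. The leading genes were *SLC1A5*, *SLC3A2* and *SLC7A5*, each above the 93rd percentile of the 14079 genes that had a length and whose mean value reached 10. At the low end were *SLC1A4*, *SLC7A11* and *SLC7A3*, below the median of the same genes. Without division by length, among the 15638 symbols whose mean value reached 10, *SLC7A11* and *SLC1A4* passed to the other side of the median, at the 60.5 and 51.9 percentiles, and *SLC7A3* stayed below it at 33.0. Among all 23292 symbols the undivided values of these 3 genes were above the median, at the 73.5, 67.7 and 55.0 percentiles.

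The neutral amino acid exchanger ASCT2, encoded by *SLC1A5* on chromosome 19 (46774883 to 46788594, minus strand, 8 exons), takes up glutamine. Its mean normalized value was 13603, or 4719.97 per kilobase, at the 96.2 percentile. Its paralog *SLC1A4* on chromosome 2 (64988477 to 65023865, plus strand, 8 exons) encodes ASCT1, which exchanges alanine, serine and cysteine. The level of *SLC1A4* was 629, or 138 per kilobase, at the 42.2 percentile. The *SLC1A5* level was thus 34.2 times that of *SLC1A4* per kilobase and 21.6 times without division by length.

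*SLC7A5* on chromosome 16 (87830023 to 87869507, minus strand, 10 exons) encodes LAT1, the exchanger for large neutral amino acids such as leucine. It had the highest mean normalized value of the group, 14272, which is 3133 per kilobase and lies at the 93.9 percentile. The heavy chain gene *SLC3A2* on chromosome 11 (62856004 to 62888880, plus strand, 9 exons) had a mean normalized value of 7884 and a level of 4183 per kilobase, at the 95.5 percentile. The order of these partners depends on the length used. Per kilobase of the transcript that stands for the gene, *SLC7A5* was at 0.749 of *SLC3A2*, while with all exons merged it was at 2.43 and without division by length at 1.81.

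*SLC7A11* on chromosome 4 (138164097 to 138242349, minus strand, 12 exons) encodes xCT, the other light chain of the group, which takes up cystine in exchange for glutamate. Its mean normalized value was 959, or 99.5 per kilobase, at the 36.6 percentile per kilobase and the 60.5 percentile without division by length. The heavy chain gene was 42.1 times as high per kilobase of the transcript that stands for the gene, 12.4 times with all exons merged and 8.22 times without division by length. The *SLC7A11* transcript was the longest of the 10 with 9645 bases, of which 81.5% is 3′ untranslated region (UTR).

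Among the cationic amino acid transporters, *SLC7A1* on chromosome 13 (29509414 to 29595688, minus strand, 13 exons) encodes CAT-1, which takes up arginine and lysine. It was at 4201, or 572 per kilobase, at the 71.4 percentile. *SLC7A3* on chromosome X (70925579 to 70931125, minus strand, 12 exons) encodes the related CAT-3 and had the lowest level of the group, 184, or 82.2 per kilobase, at the 33.3 percentile. The level of *SLC7A1* was 6.96 times that of *SLC7A3* per kilobase and 22.8 times without division by length.

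The sodium-coupled neutral amino acid transporters SNAT1 and SNAT2 are encoded by *SLC38A1* (46183063 to 46270017, minus strand, 17 exons) and *SLC38A2* (46358188 to 46372773, minus strand, 16 exons), which lie near each other on chromosome 12. *SLC38A2* was at 5461, or 1139 per kilobase (83.2 percentile). *SLC38A1* was at 3199.7, or 395 per kilobase (63.9 percentile). The ratio of *SLC38A2* to *SLC38A1* was 2.88 per kilobase and 1.71 without division by length. The glycine transporter GLYT1, encoded by *SLC6A9* on chromosome 1 (43991500 to 44031467, minus strand, 14 exons), was at 2164, or 675 per kilobase, at the 74.6 percentile.

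**Figure D2:**
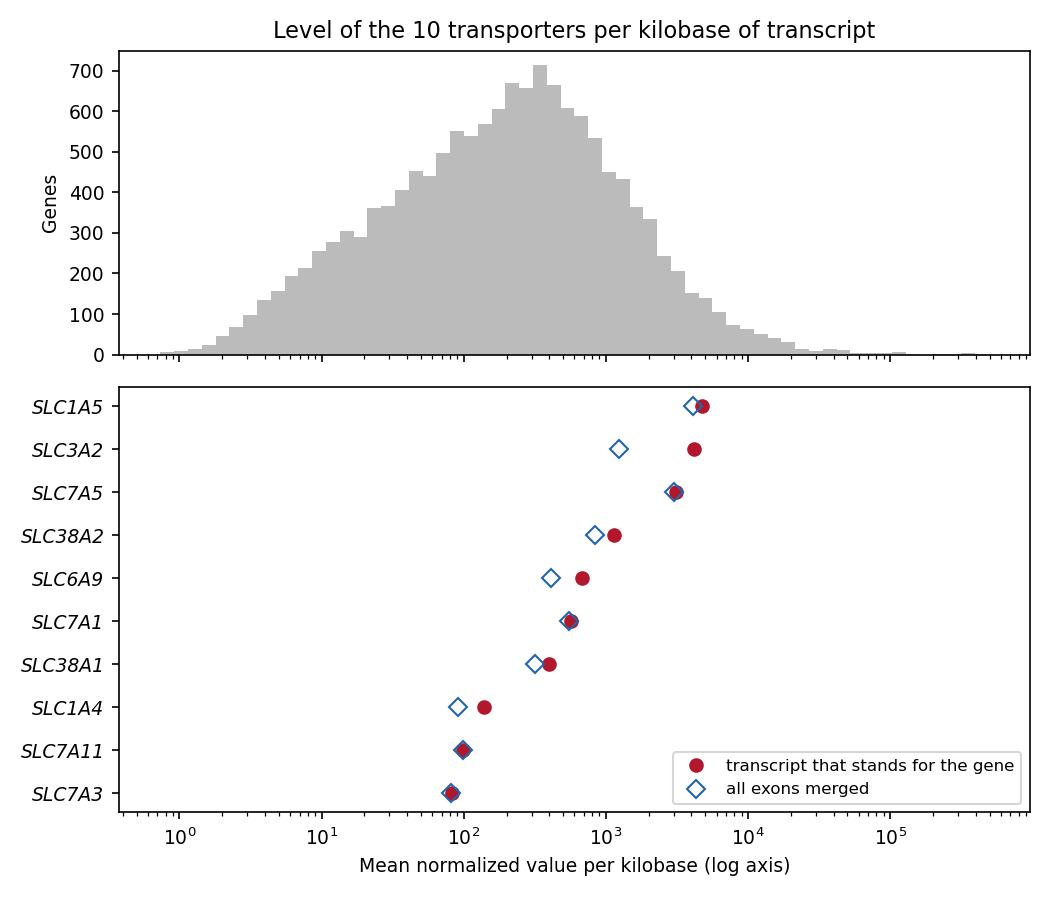
Top, number of genes by mean normalized value per kilobase (log axis) over the 14079 genes whose mean value reached 10; bottom, the same level for each transporter, with the transcript that stands for the gene (filled points) and with all exons merged (open diamonds). Each point is 1 mean over all samples and has no error; *SLC3A2* moves most between the lengths, from 4183 to 1233.

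The transcripts differ in what they add to the coding sequence. Coding lengths ranged only from 1461 bases in *SLC38A1* to 1899 in *SLC6A9*, while 3′ UTRs ranged from 170 bases in *SLC3A2* and 237 in *SLC7A3* to 5910 in *SLC38A1* and 7862 in *SLC7A11*. The order by mean normalized value and the order per kilobase differed, and *SLC38A2* in place 4 and *SLC7A3* in the last place were the only members with the same rank on both. *SLC7A5*, *SLC1A5* and *SLC3A2* took the first 3 places on both scales, in a different order.

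**Figure D3:**
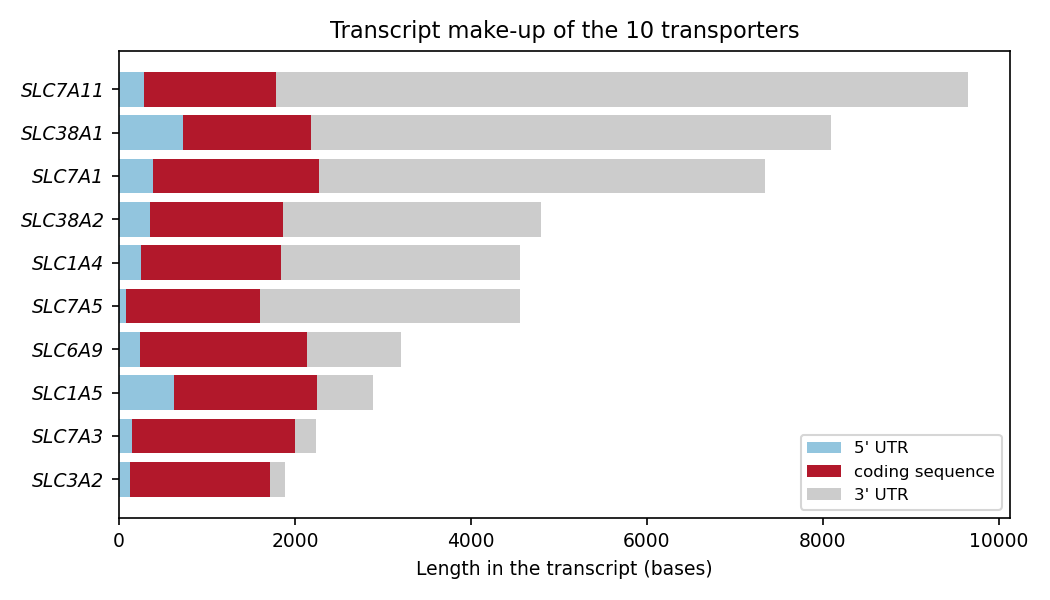
Length in bases of the 5′ UTR, coding sequence and 3′ UTR in the GENCODE 44 transcript that stands for each of the 10 genes. The coding parts are alike in length, and the 3′ UTR reaches 7862 bases in *SLC7A11*.

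Reads of 50 bases could be told apart between the related members. In 8 of the 10 transcripts, 0 stretches of 50 bases recur on the same strand in a transcript of another gene of GENCODE 44, so the pairs *SLC1A4* and *SLC1A5*, *SLC7A1* and *SLC7A3*, and *SLC38A1* and *SLC38A2* share none. In *SLC7A5*, 4.08% of the stretches recur, chiefly in its pseudogene *SLC7A5P2* and, for as many stretches, in a gene listed without a symbol, with fewer in *SLC7A5P1*, and in *SLC7A11* 0.948% recur in unrelated genes. How the authors assigned such reads is not given in the sources used here, so the level of *SLC7A5* carries this uncertainty.

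Beside other amino acid transporters, the members were split between the top and the middle of the order. Of 29 such genes listed by family, 24 were found in the tables and 20 reached a mean value of 10; the 24 had a median of 122 per kilobase. The median of the 10 members was 624 per kilobase, and that of all genes whose mean value reached 10 was 206. The 24 include 4 genes below a mean value of 10, so their median is not like for like with 206. Without that cut the median of all genes with a length was 97.8, though too few symbols had a length. When the 34 transporters were ordered by level per kilobase, the first 4 were members, and 6 of the first 10, while *SLC1A4*, *SLC7A11* and *SLC7A3* were in places 19, 22 and 23. Without division by length, 7 of the first 10 were members, and these 3 genes were in places 20, 16 and 26. The highest of the others were *SLC7A6*, a further light chain partner of CD98hc, at 773 per kilobase, *SLC38A10* at 679 and *SLC38A7* at 521.

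**Figure D4:**
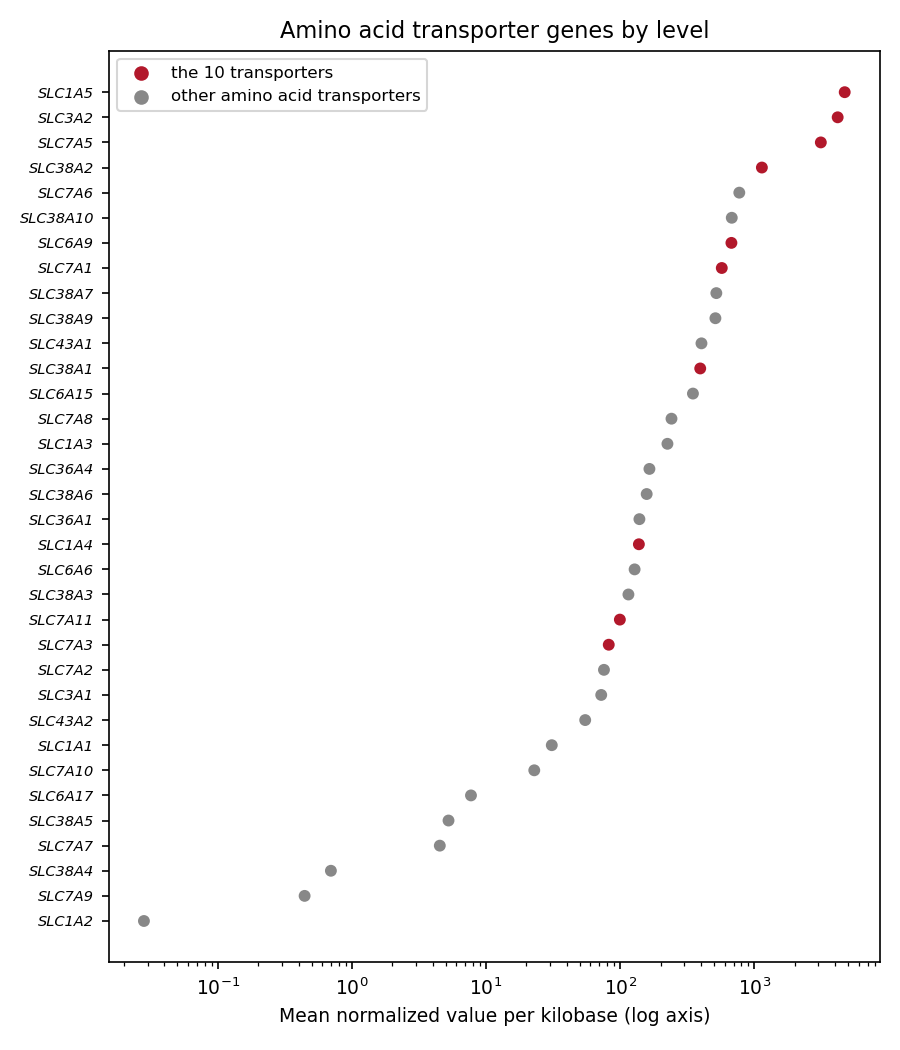
Mean normalized value per kilobase (log axis) of the 34 amino acid transporter genes found, with the 10 members in red and the other 24 in grey. Members take the first 4 places, and *SLC1A4*, *SLC7A11* and *SLC7A3* lie among the others at 138, 99.5 and 82.2.

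Other genes of the ATF4 program were all found, 16 of 16, at a median of 1010 per kilobase, above that of the members. Without division by length the order of these medians turned, at 2011 for the 16 genes and 3700.27 for the members. The highest were *ATF4* itself at 20130.4 per kilobase, *SHMT2*, a mitochondrial enzyme of serine and glycine metabolism, at 9342, and *PHGDH*, the first enzyme of serine synthesis, at 8597. Markers listed for the labelled cell line were set beside those of other cell types. No other cell line was compared, so these values cannot tell HEK293T from another cultured line. The 6 genes listed for HEK293 (neurofilament, vimentin and keratin genes) had mean normalized values from 704 up, while those for blood cells (3 genes), hepatocytes (2 genes) and endothelium (2 genes) were below 10. Of the fibroblast markers, *DCN* was at 0.840 and *COL1A1* at 397.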

How the data were processed

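RNA of 12 samples (4 groups of 3) was sequenced. The study's methods describe alignment with DNAstar SeqManPro to GRCh38.p7 and quantification with ArrayStar and QSeq. The submitters' processing notes name DESeq2 1.40.1 and also list GRCh37. Each deposited signal is the mean normalized value, which the authors scaled with DESeq2 size factors and averaged over all samples. That these are the 12 samples here is inferred from the 3 tables holding identical means. The methods state that RPKM, reads per kilobase and per M reads, entered the fit. RPKM multiplied by length in kilobases sums to about 1 M in a sample, whereas the deposited values so multiplied summed to 122 M over the genes with a length, so they are not on the RPKM scale and were divided by length here. The other columns hold the authors' comparisons of each compound with DMSO (log2 fold changes, standard errors, Wald statistics and p-values) and were not used.

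Lengths and positions were taken from the newer GENCODE 44 annotation of GRCh38, with symbols matched directly or through RefSeq synonyms. A length was found for 77.2% of all symbols; 4948 of the 5311 without one are LOC symbols. Since this is under 80%, places among all symbols per kilobase are void, and percentiles in the text are among genes whose mean value reached 10 (90.0% with a length). Motifs were searched in Python 3.11.15 with pandas 2.3.3, tested on simulated sequences. Named genes were the members, and from the other lists the highest 3; *DDIT3*, *TRIB3*, *CHAC1*, *SLC7A5P1*, *SLC7A5P2*, *DCN* and *COL1A1* lie outside this rule and were named after their values were seen. Members and lists were chosen with earlier results of these data known. The identity between member proteins was planned and not run.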

Additional observations from a re-analysis of the deposited data

How the results depend on the processing

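Among genes whose mean value reached 10, the number of transporters above the median was 7 of 10 per kilobase and 9 without division by length, and it was 7 with merged exons. Among all symbols without division by length it was 10. The placement planned as the main one, per kilobase among all genes with a length, gave 9, and 10 with merged exons, but is void because too few symbols had a length. Against the percentiles in the text, 10 of 10 transporters stayed within 10 points with merged exons. Without division by length, 3 of 10 moved by more among genes whose mean value reached 10, and 7 of 10 among all symbols. Merged exons and undivided values among genes whose mean value reached 10 were added after the data were seen. The share of transporters with the ATF4 motif was 37.5% for TGATGNAA in the promoter sequences and 25.0% on the gene strand alone. Over all promoters these shares were 3.67% and 1.90%. The share of transporters was 0% with TGATGCAA there, against 0.923% of all promoters. In the window of 3000 bases, chosen after the data were seen, it was 87.5% for TGATGNAA, 75.0% for TGATGCAA and 25.0% for TGATGCAAT. Over all genes the window held TGATGNAA in 31.0%, TGATGCAA in 6.28% and TGATGCAAT in 1.64%. Samples could not be left out in turn, and depth could not be weighed, since only 1 mean per gene was used. No paired analysis was possible because no values of single samples were used.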
